A study of Mus musculus with 8 samples.

Results

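The response of mouse small intestine to carbon ions alone was taken from 4 of the 8 arrays of the series, the 2 titled for 8 Gy and the 2 titled for 0 Gy among the saline-treated samples. All groups were female BALB/cA Jcl mice aged 8 weeks that received an intraperitoneal injection, and the series design gives 12 h as the interval between the FGF1/CPP-C injection and irradiation. The 4 arrays compared here came from mice given saline, so that dose was the labelled difference: 0 Gy in one group and 8 Gy of carbon ions in the other, with tissue frozen 4 h later. Whether the 0 Gy mice were handled as for irradiation is not stated. The other 4 arrays, from mice irradiated with 8 Gy after FGF1 or the FGF1/CPP-C protein, entered the fit so that all groups shared an estimate of the spread, and their levels are given only beside those of the saline arrays. The arrays numbered 1 shared slide 1, and those numbered 2 shared slide 2. The tissue label is small intestine, the design text names the jejunum, and the labels do not say whether both arrays of a group held RNA of separate animals, so the p-values measure only the spread between arrays, which may be technical.

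Carbon ions are a densely ionising particle beam used in radiotherapy, and they break DNA in clustered sites. Broken DNA activates the kinases ATM and ATR, which stabilise the transcription factor p53. In the crypts of the small intestine, which hold the stem cells and the dividing progenitors of the epithelium, p53 raises genes that halt the cell cycle and genes that kill the cell, while cells held before mitosis cease to raise the genes of cell division. Cell death in crypts within hours of exposure is a classical sign of radiation injury to the gut.

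Each value below is the log2 signal of a probe after the 75th percentile of its array was subtracted, so that a level of 0 equals that percentile and 1 unit is a doubling. The 75th percentile lay between 1735 and 2165 intensity units on the 4 arrays, and from 66.9% to 71.1% of probes were well above background. Levels at the floor of -6.95 have no order. A gene is said to have risen or fallen if its limma adjusted p, taken over all 21749 genes tested, was under 0.05, and log2 fold changes carry the standard error of the fit with 2 arrays per group.

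Markers of the tissue were checked first. Of the list of absorptive enterocytes, the main cell type of the villus, 22 members were measured, and their median level was 5.00 and 5.28 in the 0 Gy arrays and 5.22 and 4.93 in the 8 Gy arrays. Fabp2, the intestinal fatty acid binding protein, stood at 8.25, 8.39, 8.15 and 7.92 in the same order. Markers of Brunner glands, the mucous glands of the duodenum, had a median between 2.68 and 3.24 in all 4 arrays. The plot of marker levels by array shows that 2 further lists split the arrays across the groups.

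**Figure D1:**
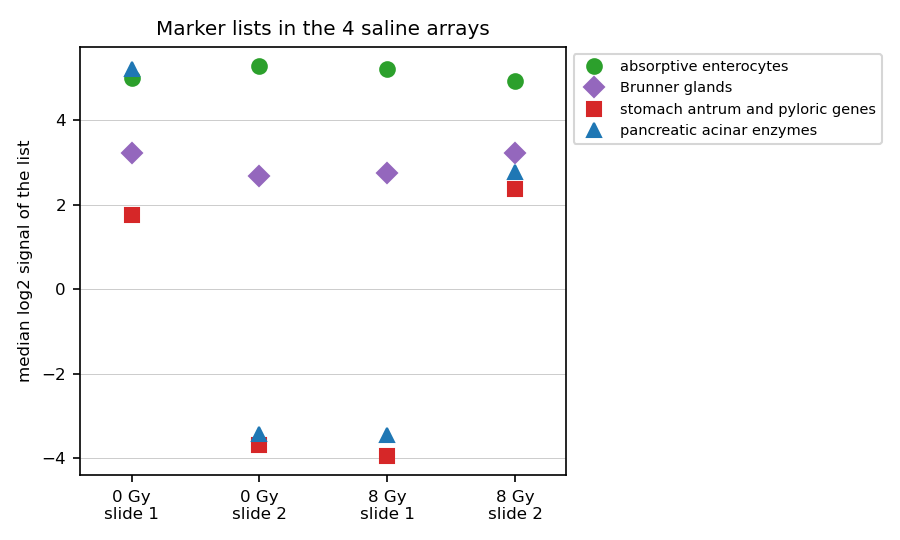
Median log2 signal of 4 marker lists in each of the 4 saline arrays, relative to the 75th percentile of the array, with 1 symbol per list. Enterocyte and Brunner gland medians stay level, while the stomach antrum and pancreatic acinar medians are high in the 0 Gy array of slide 1 and the 8 Gy array of slide 2 and below -3 in the other two.

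The median of 14 measured stomach antrum genes was 1.76 and -3.69 in the 0 Gy arrays and -3.94 and 2.39 in the 8 Gy arrays. That of 19 measured pancreatic acinar enzymes was 5.22 and -3.44 without irradiation and -3.46 and 2.79 with it. In each group, therefore, 1 array was high in both lists, replicate 1 at 0 Gy and replicate 2 at 8 Gy. Gkn2, a gastric mucus-associated protein, stood at 6.58 and -5.30 in the 0 Gy arrays and at -5.13 and 7.55 in the 8 Gy arrays. Try4, a trypsinogen of the acinar cell, stood at 7.34 and at the floor without irradiation and at -4.75 and 5.25 with it. Summed over the list and in multiples of the 75th percentile, antrum signal was 1156 and 813 at 0 Gy and 435 and 1212 at 8 Gy, and acinar signal was 1029 and 185 at 0 Gy and 172 and 362 at 8 Gy. Gkn3 and Tff2 were above 7 in all 4 arrays, so the antrum sum never came near 0. Tff2 and Muc6 stand on both the antrum and the Brunner gland list, so these lists are not independent. Which tissue gave the signal of the shared genes was not tested. No antrum or acinar gene rose or fell. In 2 of the 14 antrum genes the groups did not overlap, with the 8 Gy arrays lower, beside 22.9% of all genes.

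The same split marked the arrays as a whole. Across genes, the 2 arrays at 0 Gy correlated with r = 0.988 and the 2 at 8 Gy with r = 0.982, whereas the arrays with antrum transcripts correlated across the groups with r = 0.990 and those without with r = 0.992 (genes are not independent replicates). Over all genes, the difference between 8 Gy and 0 Gy had the same sign on both slides in 50.7% of genes. Among genes at least 2-fold apart, 192 were higher and 152 lower, and 49 of them had opposite signs on the slides. The part of these transcripts in the results below was not tested beyond leaving both arrays out. List medians are given with and without those 2 saline arrays. Of the arrays with a growth factor, the FGF1 array of slide 1 was also high in antrum genes. Its antrum median was 1.47, beside -4.36 in the FGF1 array of slide 2, and its acinar median was low, -3.80. It stayed in the fit that left the 2 saline arrays out, and so in the estimate of the spread.

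**Figure D2:**
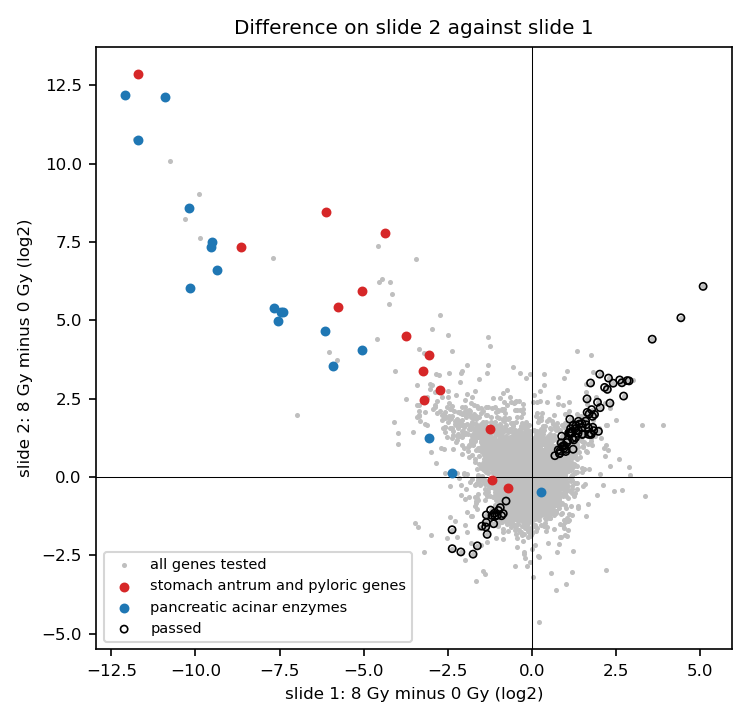
Difference in log2 signal between the 8 Gy and the 0 Gy array on slide 2 (vertical) against that on slide 1 (horizontal), 1 point per gene, with antrum genes in red, acinar enzymes in blue and the 89 genes that passed as open circles. Antrum and acinar genes run from the upper left to the centre, lower on slide 1 and higher on slide 2, while the genes that passed lie in the quadrants where both slides have the same sign.

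Irradiated tissue had higher levels of p53 targets, and lower levels of mitotic genes, of Cyp1a1 and of 2 Wnt pathway genes. Of the 21749 genes tested, 89 changed, which is 0.409% of them, 68 higher (0.313%) and 21 lower (0.0966%). With the slide as a block, 37 changed (0.17%), 30 higher (0.138%) and 7 lower (0.0322%), of which 34 were among the 89. All 89 differed in the same direction on both slides with no overlap between the groups, a state that 38.1% of all tested genes showed, 15.2% higher and 22.9% lower. At an unadjusted p under 0.05 there were 1062 higher and 1619 lower genes, where 1087 in all would be reached by chance. The median over all genes was -0.05, with -0.01 on slide 1 and -0.11 on slide 2.

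Of the 89 genes, 75 changed at least 2-fold and 22 at least 4-fold, and the smallest change that passed was 0.68 on the log2 scale, where the standard error of a typical gene was 0.15. Leaving out either 0 Gy array, or both arrays with antrum transcripts, ended every call. That all 89 kept their direction each time was fixed in advance, since their groups did not overlap. Without 8 Gy replicate 1, 43 genes passed, and without 8 Gy replicate 2, 13. In this bulk tissue, fewer cells of a type and less RNA per cell cannot be told apart.

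**Figure D3:**
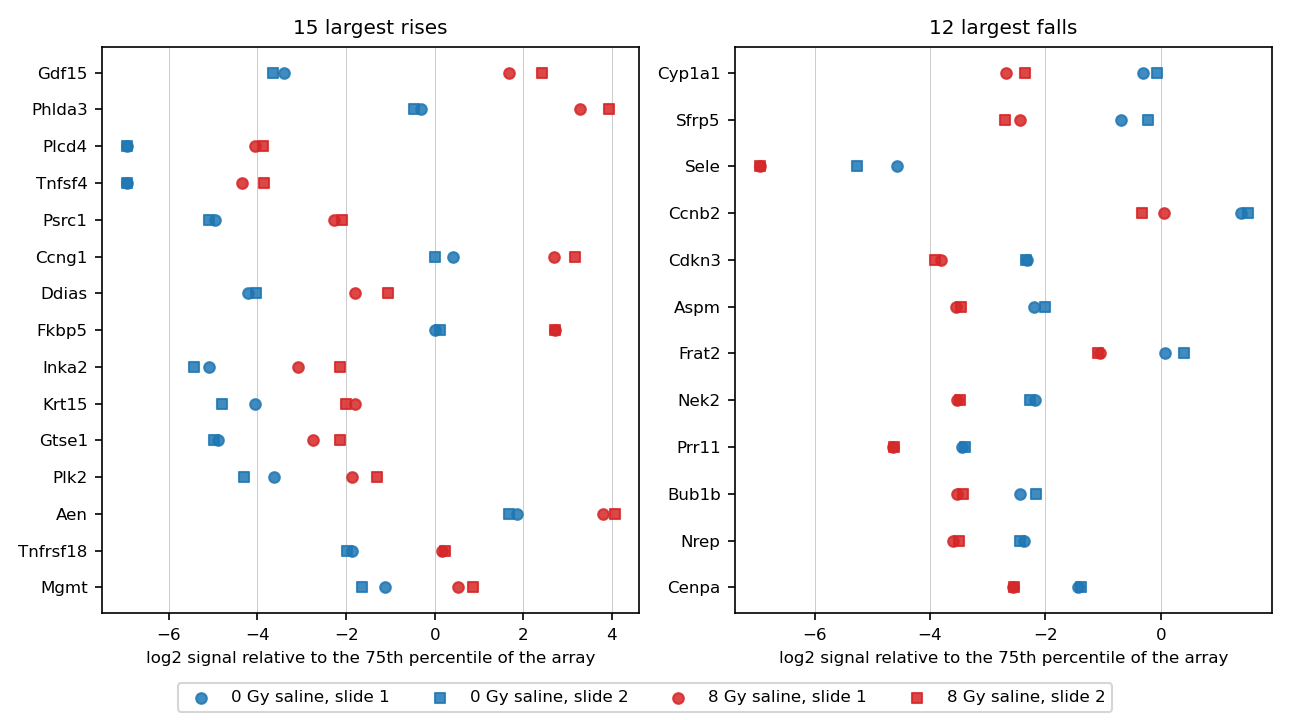
Level of the 15 named genes that rose most and the 12 that fell most in each saline array, as log2 signal relative to the 75th percentile of the array, with blue for 0 Gy, red for 8 Gy, circles for slide 1 and squares for slide 2. In every row the 2 red symbols lie on the same side of the 2 blue ones, and Gdf15 shows the widest gap, from -3.41 at 0 Gy to 1.68 at 8 Gy.

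The largest change that passed was in Gdf15, a secreted cytokine of the TGF-beta family that signals tissue stress to the brainstem and is a direct p53 target. Its levels were -3.41 and -3.66 in the 0 Gy arrays and 1.68 and 2.43 in the 8 Gy arrays. It thus went from over 3 log2 units below the 75th percentile to above it on both slides. The fold was 48.0 (log2 fold change 5.58 ± 0.30, limma adjusted p = 0.00490), with 5.09 on slide 1 and 6.08 on slide 2. Its probe lies on chromosome 8 at 73153293 to 73153352 on the minus strand of mm9, the mouse build of the array files.

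Among p53 targets that act on arrest and on feedback, 19 were measured, 8 rose and none fell, beside 0.313% of all genes that rose. Their median was 0.87, with 0.98 on slide 1, 0.77 on slide 2 and 0.77 without the 2 arrays that carried antrum transcripts, and 17 of the 19 were positive. With the slide as a block 4 of the 8 remained past the threshold. Phlda3, which competes with Akt for membrane lipids, stood at -0.30 and -0.46 without irradiation and at 3.27 and 3.94 with it, a 15.8-fold rise (3.99 ± 0.22, adjusted p = 0.00490). Ccng1, cyclin G1, a feedback partner of Mdm2, stood at 0.42 and 0.00 against 2.69 and 3.16, a rise of 2.72 ± 0.20 (adjusted p = 0.0167). In both genes the 8 Gy levels lay more than 2 log2 units above the higher 0 Gy level.

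Further members rose by more than 2 log2 units. Psrc1, a microtubule-binding protein of the spindle, was at -4.95 and -5.11 in the 0 Gy arrays and at -2.28 and -2.10 in the 8 Gy arrays (2.84 ± 0.14, adjusted p = 0.00490). Gtse1, which shuttles p53 out of the nucleus, was at -4.90 and -4.99 against -2.74 and -2.13 (2.51 ± 0.21, adjusted p = 0.0188). Plk2, a polo-like kinase induced by stress, was at -3.62 and -4.29 against -1.88 and -1.29 (2.37 ± 0.29, adjusted p = 0.0454). In these 3 genes both arrays at 8 Gy lay more than 1 log2 unit above both at 0 Gy. Zmat3, an RNA-binding p53 target, rose by 1.49 ± 0.18 and Trp53inp1, a nuclear cofactor of p53, by 1.29 ± 0.12.

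Mdm2, the ubiquitin ligase that degrades p53, stood at 2.57 and 2.78 without irradiation and at 3.63 and 3.94 with it, a rise of 1.11 ± 0.14 (limma adjusted p = 0.0465). Cdkn1a, the cyclin-dependent kinase inhibitor p21, was at 2.70 and 2.91 against 3.68 and 3.68. Its groups did not overlap, its difference was 0.87 ± 0.12 and it did not pass (adjusted p = 0.0612). Members that lay near 0 included Sfn, the 14-3-3 sigma protein, at -0.00, Gadd45a, a stress sensor, at -0.00, and Btg2, an antiproliferative gene, at 0.14, all 3 named after their values had been seen. In the family of p53 itself and its regulators, 10 were measured and none passed, with a median of -0.11 and 0.07 without the arrays with antrum transcripts. Trp53 had -0.19 ± 0.17 (adjusted p = 0.719), from -2.80 and -2.37 without irradiation and -2.83 and -2.73 with it, groups that overlapped.

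**Figure D4:**
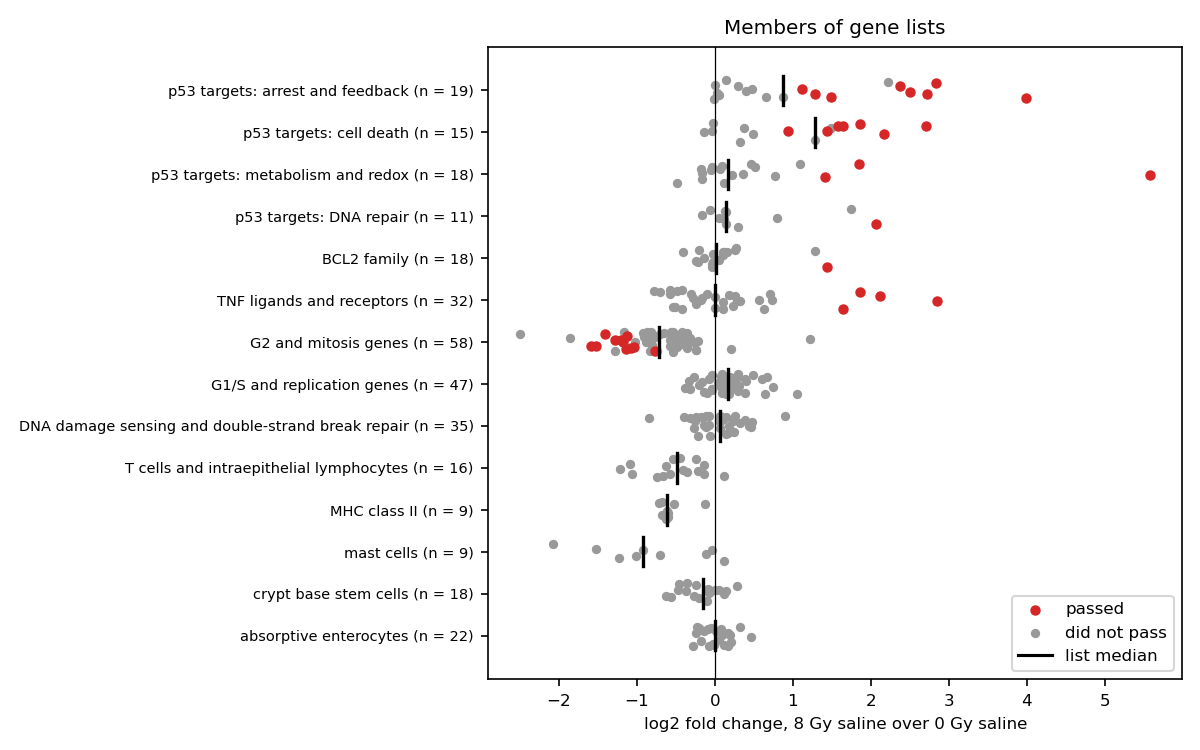
Log2 fold change of 8 Gy over 0 Gy saline for each measured member of 14 gene lists, with red points for genes that passed (limma adjusted p under 0.05), grey points for the others and a black bar at the list median. Red points lie on the right in the 4 p53 lists and the TNF list and on the left in the list of G2 and mitosis genes, whose median is -0.72.

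Of 15 measured p53 targets that act in cell death, 7 rose and none fell, beside 0.313% and 0.0966% of all genes. Of the 7, Eda2r was at the floor in both 0 Gy arrays and was measured only through arrays at 8 Gy. The list median was 1.29, with 1.05 on slide 1, 1.49 on slide 2 and 0.95 without the arrays with antrum transcripts. Aen, a nuclease that degrades DNA in dying cells, was at 1.86 and 1.68 in the 0 Gy arrays and at 3.80 and 4.06 in the 8 Gy arrays, a 4.49-fold rise (2.17 ± 0.13, limma adjusted p = 0.00659). Ddias, an anti-apoptotic gene induced by DNA damage, was at -4.20 and -4.04 against -1.79 and -1.05 (2.70 ± 0.26, adjusted p = 0.0263). Bax, which opens the outer mitochondrial membrane, was at 1.35 and 1.44 against 2.73 and 2.92 (1.43 ± 0.12, adjusted p = 0.0188). In each of the 3 the lower 8 Gy level stood over 1 log2 unit above the higher 0 Gy level. Siva1, an adaptor of death receptors, rose by 1.58 ± 0.13 and Ei24, a membrane protein of the endoplasmic reticulum, by 0.94 ± 0.08.

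Other death genes spread widely between arrays or did not move. Bbc3, which encodes the BH3-only protein PUMA, stood at 0.59 and 0.80 at 0 Gy and at 1.64 and 2.33 at 8 Gy. The groups did not overlap, and the difference of 1.29 ± 0.24 did not pass (adjusted p = 0.126). Pmaip1, which encodes NOXA, was at 2.32 and 2.88 against 2.85 and 2.28, with a difference of -0.04 ± 0.26 (adjusted p = 0.975). Fas, a death receptor, had 0.32 ± 0.13 (adjusted p = 0.402). Within the BCL2 family, Bax was the sole gene of 18 measured that passed, and the family median was 0.02, or 0.10 without the arrays with antrum transcripts. The survival genes Mcl1 and Bcl2 had 0.11 and -0.24 (adjusted p = 0.821 and 0.665). No caspase or caspase inhibitor of 18 measured passed, and their median was -0.01, or 0.10 without those arrays.

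Among 32 measured ligands and receptors of the tumour necrosis factor superfamily, which govern death and costimulation of immune cells, 4 rose and none fell, beside 0.313% and 0.0966% of all genes, and the median was 0.01, or 0.19 without the arrays with antrum transcripts. Tnfsf4 and Eda2r were measured only through the 8 Gy arrays, and 2 members rose when a probe had to be well above background on all 4 arrays and 1 with no filter on dim probes. Tnfrsf18, the costimulatory receptor GITR, was at -1.86 and -1.98 in the 0 Gy arrays and at 0.16 and 0.23 in the 8 Gy arrays (2.12 ± 0.11, limma adjusted p = 0.00490). Tnfsf4, the OX40 ligand, was at the floor in both 0 Gy arrays and at -4.35 and -3.85 in the 8 Gy arrays. It was not well above background without irradiation, so its rise is a bound, at least 6.71-fold (adjusted p = 0.0119). Such bounds set the mean of the bright group against the detection limit of each dim array, taken as its dimmest probe still above background, or against the dim probe itself where that was brighter. Tnfrsf10b, the mouse TRAIL receptor, was at -0.96 and -0.71 against 0.65 and 0.96 (1.64 ± 0.15, adjusted p = 0.0249). Eda2r, a receptor of the ectodysplasin ligand on the X chromosome, was at the floor at 0 Gy and at -5.15 and -5.02 at 8 Gy, at least 3.39-fold higher (adjusted p = 0.0263). Tnfrsf10b and Eda2r are also on the p53 list, and T cell markers, given below, had a negative median on the same arrays.

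The metabolic and redox targets of p53 had 3 members that rose of 18 measured, Gdf15, Cpt1c and Sesn2, beside 0.313% of all genes, and a median of 0.17, with 0.24 on slide 1, 0.22 on slide 2 and 0.22 without the arrays with antrum transcripts. Cpt1c, a carnitine acyltransferase of the endoplasmic reticulum, was at -4.20 and -4.25 without irradiation and at -2.56 and -2.19 with it (1.85 ± 0.16, limma adjusted p = 0.0190). Sesn2, which restrains mTORC1, was at -0.21 and -0.05 against 1.08 and 1.49 (1.41 ± 0.16, adjusted p = 0.0400). Of 11 measured p53 targets in DNA repair, 1 rose, and their median was 0.14, or 0.21 without those arrays. Mgmt, the enzyme that strips alkyl groups from guanine, was at -1.12 and -1.63 against 0.52 and 0.86 (2.06 ± 0.20, adjusted p = 0.0263). Ercc5, a nuclease of excision repair, had 0.79 ± 0.10 (adjusted p = 0.0562). Over the 4 p53 lists together, 19 of 63 distinct measured genes rose and none fell, beside 0.313% and 0.0966% of all genes. The 19 include Eda2r, which was measured only through arrays at 8 Gy. These lists were drawn from textbook knowledge with earlier results of these data known, so the counts are a description.

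Of 35 measured genes that sense and mend double-strand breaks, none passed, and the median was 0.07, or 0.08 without the arrays with antrum transcripts. In 9 of them the groups did not overlap with the 8 Gy arrays higher, and in 8 with them lower, beside 15.2% and 22.9% of all genes.

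Genes of G2 and mitosis were lower after irradiation. Of 58 measured, 11 fell and none rose, beside 0.0966% of all genes that fell. Negative fold changes were found in 56, and in 53 the groups did not overlap with the 8 Gy arrays lower, beside 22.9% of all genes. The median was -0.72, with -0.61 on slide 1, -0.81 on slide 2 and -0.76 without the arrays with antrum transcripts, and over all other alternatives it lay between -0.55 and -0.78. The count was not stable, with 2 of the 11 past the threshold when the slide was a block. Settings that left arrays out could not turn the sign of the median, since the groups did not overlap in 53 of the 58. Summed over the list in multiples of the 75th percentile, the signal was 60.8 and 68.3 at 0 Gy and 41.1 and 38.6 at 8 Gy.

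Ccnb2, cyclin B2 of the kinase that starts mitosis, stood at 1.39 and 1.50 in the 0 Gy arrays and at 0.06 and -0.33 in the 8 Gy arrays (-1.58 ± 0.20, limma adjusted p = 0.0482). Cdkn3, a phosphatase of cyclin-dependent kinases, was at -2.33 and -2.35 against -3.82 and -3.91 (-1.53 ± 0.13, adjusted p = 0.0213). Aspm, a spindle pole protein, was at -2.20 and -2.01 against -3.56 and -3.46 (-1.40 ± 0.15, adjusted p = 0.0299). The arrays of a group lay within 0.4 log2 units of each other in all 3, and the groups were apart by more than 1. Nek2, a centrosome kinase, was at -2.18 and -2.27 against -3.53 and -3.48 (-1.28 ± 0.10, adjusted p = 0.0167). Prr11, a mitotic protein, was at -3.45 and -3.39 against -4.64 and -4.62 (-1.21 ± 0.12, adjusted p = 0.0263). Bub1b, a kinase of the spindle checkpoint, was at -2.44 and -2.17 against -3.54 and -3.42 (-1.17 ± 0.14, adjusted p = 0.0436). Cenpa, the histone H3 variant of centromeres, was at -1.44 and -1.39 against -2.56 and -2.55 (-1.14 ± 0.11, adjusted p = 0.0249).

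The remaining 4 were smaller falls of genes at the core of mitosis. Ccnb1, cyclin B1, fell by 1.13 on the log2 scale, Plk1, the main polo-like kinase, by 1.07, and Cdc20, the activator of the anaphase-promoting complex, by 1.03. Racgap1, which organises the cleavage furrow, fell by 0.77. Cdk1, the partner kinase of the B cyclins, was at -2.28 and -2.32 at 0 Gy and at -2.89 and -2.78 at 8 Gy, with a difference of -0.54 ± 0.12 that did not pass (limma adjusted p = 0.168). Mki67, the proliferation marker Ki-67, was at 2.50 and 2.70 against 1.87 and 1.77 (-0.78 ± 0.12, adjusted p = 0.0819). In both the groups did not overlap. The 2 members of the list with positive values, named after their values had been seen, were Ckap2, a spindle protein, at 1.22 ± 0.16 (adjusted p = 0.0562) and Spc25, a kinetochore subunit, at 0.21 ± 0.12.

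Promoters of mitotic genes often hold a CHR element (TTTGAA or TTTAAA), bound by the DREAM and MuvB complexes, and CCAAT boxes, bound by NF-Y. In the RefSeq promoter windows of GRCm38.p6, from 250 bases before to 50 after the start, both strands were searched for these letters. A CHR match was found in 38 of 51 G2 and mitosis genes with a window (74.5%) and in 10 of the 11 that fell (90.9%). The share was 24.1% of the 13282 tested genes with a window, 32.4% of G1/S genes and 29.5% of genes that rose. A CCAAT match was found in 37 of 51 (72.5%) and in all 11 that fell. The share was 41.9% of all tested genes with a window and 64.9% of G1/S genes. The 5 windows below cover the 120 bases before the start of genes that fell, chosen because each holds both elements, and capitals mark CHR and CCAAT matches on either strand. They lie at chr4:118437344-118437463 (minus strand) for Cdc20, chr5:30666766-30666885 (plus) for Cenpa, chr7:122159315-122159434 (plus) for Plk1, chr13:100786487-100786606 (minus) for Ccnb1 and chr14:46760421-46760540 (plus) for Cdkn3.
Cdc20: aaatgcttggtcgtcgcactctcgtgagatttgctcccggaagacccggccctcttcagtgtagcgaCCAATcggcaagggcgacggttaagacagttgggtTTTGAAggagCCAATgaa
Cenpa: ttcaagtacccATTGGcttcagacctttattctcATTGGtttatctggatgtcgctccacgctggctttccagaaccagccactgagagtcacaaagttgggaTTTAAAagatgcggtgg
Plk1: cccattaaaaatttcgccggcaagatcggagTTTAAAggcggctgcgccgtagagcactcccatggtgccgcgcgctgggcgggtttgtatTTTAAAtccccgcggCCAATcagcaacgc
Ccnb1: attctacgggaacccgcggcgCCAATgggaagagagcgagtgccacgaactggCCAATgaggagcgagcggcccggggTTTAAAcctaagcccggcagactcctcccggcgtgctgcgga
Cdkn3: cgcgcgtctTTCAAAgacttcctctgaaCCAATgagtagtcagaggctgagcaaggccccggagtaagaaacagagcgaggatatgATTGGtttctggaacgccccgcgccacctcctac

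Within the printed windows, the CHR match of Cdc20, Cenpa and Ccnb1 began at position -18, -17 and -42 from the start, with a CCAAT match upstream of it in each, and that of Cdkn3 began at -111. In the printed window of Plk1 the order was the other way, with CHR matches at -89 and -29 and its CCAAT match at -14. Further CHR matches after the start, which the printed windows leave out, lay at 31 in Plk1 and at 17 in Cenpa. A match is a description of the letters and not a bound site. The same windows were searched for a pair of p53 core letters, CATG, then 6 bases of any kind, then CATG. The pair was found in 63 of all tested genes with a window (0.474%). It was found in 1 of 52 p53 targets with a window and in 0 of the 16 that rose and had one. The window is short, and sites in introns or further upstream were not searched.

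Genes of the G1/S transition and of replication lay on the other side of 0. None of 47 measured passed, 33 were positive, 22 did not overlap with the 8 Gy arrays higher (beside 15.2% of all genes) and 5 with them lower. The median was 0.17, with 0.27 on slide 1, 0.05 on slide 2 and 0.15 without the arrays with antrum transcripts. Rrm2, a subunit of ribonucleotide reductase, stood at 0.39 and 0.57 without irradiation and at 1.70 and 1.36 with it (1.05 ± 0.14, limma adjusted p = 0.0565). E2f7, a repressor of E2F targets, was at -2.74 and -2.41 against -1.76 and -1.89 (0.75 ± 0.13, adjusted p = 0.118). In neither did the groups overlap, and neither passed. Ccne1, cyclin E1, had 0.38 ± 0.13 (adjusted p = 0.319), Ccnd1, cyclin D1, 0.75 ± 0.22 (adjusted p = 0.252) and Myc 0.44 ± 0.15 (adjusted p = 0.331). None of 16 measured G1 cyclins, kinases and inhibitors passed, and Ccne2 was not measured above background.

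Several genes outside the p53 and cell cycle lists changed as well. Plcd4, a phospholipase C, was at the floor in both 0 Gy arrays and at -4.07 and -3.88 in the 8 Gy arrays by the probe used (limma adjusted p = 0.00490). That probe entered the fit only through irradiated arrays. Levels at the floor add no spread, so this adjusted p understates the spread between arrays. A second Plcd4 probe, well above background on 3 of the 4 arrays, differed by 1.06, so the size of its rise is uncertain. Inka2, an inhibitor of the kinase PAK4, was at -5.10 and -5.43 against -3.09 and -2.14 (2.65 ± 0.31, adjusted p = 0.0417). Krt15, a keratin known as a marker of basal and progenitor cells, was at -4.05 and -4.80 against -1.81 and -2.00 (2.52 ± 0.28, adjusted p = 0.0355). In all 3 the groups were clearly apart, although the 2 arrays at 8 Gy differed by 0.95 in Inka2. Krt12, best known as a keratin of the cornea, rose by 1.69 ± 0.11, and none of the other 13 measured cytokeratins passed, with a list median of 0.30, or 0.18 without the arrays with antrum transcripts. Krt8, Krt19 and Krt20, keratins of the gut epithelium named after their values had been seen, had -0.05, 0.29 and 0.12.

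Fkbp5, a chaperone of steroid receptors, stood at 0.00 and 0.13 in the 0 Gy arrays and at 2.72 and 2.71 in the 8 Gy arrays, a 6.29-fold rise (2.65 ± 0.32, limma adjusted p = 0.0436). It was the sole member of 19 measured glucocorticoid-induced genes that passed, and the list median was -0.07, or -0.19 without the arrays with antrum transcripts. Pdk4, which inhibits pyruvate dehydrogenase, was at 2.80 and 3.27 against 1.87 and 1.90 (-1.15 ± 0.21, adjusted p = 0.124). Per1, a clock gene that glucocorticoids induce, was at 1.10 and 1.02 against 0.12 and -0.46 (-1.23 ± 0.32, adjusted p = 0.222). Both lay below their 0 Gy levels on each slide, opposite to Fkbp5, and neither passed. The list as a whole was mixed, with 9 of the 19 positive and 10 negative. The groups did not overlap in 6 members with the 8 Gy arrays higher and in 8 with them lower, beside 15.2% and 22.9% of all genes. Nr3c1, the glucocorticoid receptor, had -0.25 ± 0.15, from 1 array at 8 Gy, since its spot on the other was left out as an outlier. Of 18 measured clock genes, the output factor Tef rose by 0.93 ± 0.09 and none of the rest passed.

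Cyp1a1, the xenobiotic-oxidising enzyme that the aryl hydrocarbon receptor induces, had the largest fall. It was at -0.31 and -0.07 without irradiation and at -2.68 and -2.36 with it, 5.03-fold lower (-2.33 ± 0.19, limma adjusted p = 0.0185), and its probe lies on chromosome 9 at 57551535 to 57551594 of mm9. No other of 11 measured targets of the receptor passed, and their median was -0.09, or -0.04 without the arrays with antrum transcripts. Ahrr, the repressor of the receptor, had -0.64 ± 0.23 (adjusted p = 0.350) and Ahr itself -0.09 ± 0.11 (adjusted p = 0.808), from 0.59 and 0.55 against 0.61 and 0.35.

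In the Wnt pathway, which maintains crypt stem cells, 2 of 27 measured antagonists, feedback genes and ligands fell, beside 0.0966% of all genes, and none rose. The median was -0.28, with -0.31 on slide 1, -0.23 on slide 2 and -0.25 without the arrays with antrum transcripts. Sfrp5, a secreted Wnt antagonist, was at -0.70 and -0.23 at 0 Gy and at -2.45 and -2.69 at 8 Gy (-2.11 ± 0.18, limma adjusted p = 0.0188). Frat2, which binds the kinase GSK3 and favours Wnt signalling, was at 0.08 and 0.40 against -1.06 and -1.09 (-1.32 ± 0.14, adjusted p = 0.0299). The 2 that fell thus act in opposite ways on the pathway. Markers of crypt base stem cells did not pass in any of 18 measured. Their median was -0.15, with -0.56 on slide 1 and 0.18 on slide 2, so that the slides differed in sign, and it was -0.42 without the arrays with antrum transcripts. Lgr5, the Wnt-dependent stem cell receptor, was at -3.24 and -3.07 against -3.56 and -3.66 (-0.45 ± 0.19, adjusted p = 0.421). Olfm4, a secreted stem cell marker, was at 0.34 and 0.57 against -0.54 and 0.52 (-0.47 ± 0.40, adjusted p = 0.717), with overlap between the groups.

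Sele encodes E-selectin, by which endothelium captures leukocytes. It was at -4.58 and -5.27 in the 0 Gy arrays and at the floor in both 8 Gy arrays, where it was not well above background. The bound was at least 3.93-fold lower. Sele entered the fit through the 0 Gy arrays, and every irradiated array, with or without a growth factor, was at the floor. Those arrays add no spread, so its limma adjusted p of 0.0313 rests on the 0 Gy arrays and understates the spread between arrays. The other 18 measured endothelial genes did not pass, with a list median of -0.14, or -0.24 without the arrays with antrum transcripts. Etv4, an ETS factor downstream of FGF receptors and ERK, rose by 0.98 ± 0.11 as the sole member of 14 measured genes of FGF and ERK feedback. Utp20, a factor of small ribosomal subunit assembly, rose by 0.94 ± 0.11, the sole gene of 18 in ribosome biogenesis. Nrep, a neuronal regeneration-related protein, was at -2.37 and -2.43 against -3.60 and -3.49 (-1.14 ± 0.12, adjusted p = 0.0313).

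Lists of T cell and MHC class II genes had negative medians and no member that passed. Of 16 measured genes of T cells and intraepithelial lymphocytes, 15 were negative and 11 did not overlap with the 8 Gy arrays lower, beside 22.9% of all genes. Their median was -0.49, with -0.05 on slide 1, -0.92 on slide 2 and -0.36 without the arrays with antrum transcripts, so that most of it lay on slide 2. Cd8b1, a chain of the CD8 receptor, was at -4.64 and -5.09 against -5.79 and -6.11 (-1.08 ± 0.19, limma adjusted p = 0.120). All 9 measured genes of MHC class II antigen presentation were negative, with a median of -0.62, -0.34 on slide 1, -0.90 on slide 2 and -0.30 without both arrays with antrum transcripts. H2-Ab1, the beta chain of I-A, was at 4.99 and 4.95 against 4.58 and 4.02 (-0.67 ± 0.19, adjusted p = 0.245). Antrum and acinar transcripts were high in the 8 Gy array of slide 2, where these values were lowest, and their part in the difference was not tested. Without that array the medians were -0.21 for T cell genes and -0.33 for MHC class II genes.

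The median of mast cell genes was -0.93, with -1.18 on slide 1, 0.09 on slide 2 and -1.53 without both arrays with antrum transcripts. B and plasma cell genes had -0.28, or 0.09 without those arrays, and neutrophil and eosinophil genes -0.05, or 0.22 without them, so that both turned sign. Mcpt4, a connective tissue mast cell protease, was at 0.27 and 0.30 at 0 Gy and at -1.54 and -0.95 at 8 Gy (-1.53 ± 0.24, limma adjusted p = 0.0905), so that this member was lower on both slides. Mcpt1, the mucosal protease, was at -1.03 and -1.15 against -3.27 and -3.06 (-2.07 ± 0.51, adjusted p = 0.207). None of the 9 measured passed, and without 8 Gy replicate 1 the median was -0.05. Enterocyte, Paneth, goblet, enteroendocrine and tuft cell lists held no gene that passed, with medians from -0.21 to 0.00, or from -0.28 to 0.14 without the arrays with antrum transcripts.

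Of the 89 genes, 19 carried no established symbol. The largest of these changes belonged to 1700007K13Rik, whose probe lies on chromosome 2 at 28317523 to 28317582 of mm9. It was at the floor in both 0 Gy arrays and at -2.53 and -1.87 in the 8 Gy arrays, at least 25.1-fold higher (limma adjusted p = 0.00490). It entered the fit only through irradiated arrays. Levels at the floor add no spread, so this adjusted p understates the spread between arrays. Its nearest measured named neighbour, Ppp1r26 at 6525 bases, had 0.15 (adjusted p = 0.854). A transcript named only as ENSMUST00000138065 rose by 1.62 ± 0.19 and lay 333 bases from the probe of Pidd1, a scaffold of the caspase-2 complex, which had 1.48 ± 0.20 (adjusted p = 0.0567) and passed with the slide as a block. The probe A_55_P2164694 rose by 2.34 ± 0.16 and lies on chromosome 15 at 61939168 to 61939227. These features were named after their values had been seen.

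Some probes share sequence, and their values are not independent. The probe of Mbd1, a methyl-CpG binding protein, rose by 1.52 ± 0.19, while 2 other Mbd1 probes differed by 0.18 and 0.02. That probe shares a run of 36 bases with the unnamed probes A_55_P2007495 on X and A_55_P2114318 on chromosome 7, which rose by 1.44 and 1.43 and share 49 bases with each other, so the value of Mbd1 is uncertain. The Siva1 probe used lies on chromosome 9 and a second on chromosome 12, and they differed by 1.58 and 1.57. Both Aen probes, which differed by 2.17 and 2.04, lie on chromosome 4 in the array files and share 50 bases. Over the 17 changed genes with several probes, 18 of the 21 other probes were well above background on at least 2 of the 4 saline arrays. All 18 had the sign of the probe used, the 2 other Mbd1 probes with values near 0. Among those below that limit, a Trim71 probe had -0.62, opposite to the probe used.

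Pairs of neighbouring genes that both changed were few. The probes of Mdm2 and Cpm, a membrane carboxypeptidase, lie 4021 bases apart on chromosome 10, and Cpm rose by 0.82 ± 0.10. The probes of Ccng1 and Nudcd2, a cochaperone, lie 9535 bases apart on chromosome 11, and Nudcd2 rose by 0.68 ± 0.09. Within 10000 bases of a changed gene, 4 of 40 neighbours changed (10.0%), these being the members of the 2 pairs, and within 200000 bases 8 of 633 (1.26%), beside 0.409% of all genes.

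Large differences that did not pass show what the spread between arrays does. Saa3, an acute-phase protein, was at -5.39 and -6.04 at 0 Gy and at -2.39 and -2.94 at 8 Gy (3.06 ± 0.45, limma adjusted p = 0.0754), and its adjusted p was 0.0491 once the slide entered as a block. Anxa8, an annexin, was at -3.42 and -4.20 against -2.08 and -0.19 (2.67 ± 0.60, adjusted p = 0.181). Mab21l3, Dennd2c and Mbl2 had 2.84, 2.57 and 2.47. In the other direction Gm2560, a predicted gene without an established symbol and so outside the naming rule, had the lowest value of all genes, -2.81 ± 0.48 (adjusted p = 0.110), and its adjusted p was 0.0376 once the slide entered as a block. Cdc25c, the phosphatase that activates Cdk1, was at -2.92 and -4.53 against -6.32 and -6.13 (-2.50 ± 0.59, adjusted p = 0.193). D13Ertd608e and Apol10a had -2.32 and -2.23. Defb45, a defensin, was at -5.43 and -0.97 against -5.22 and -5.59, a mean difference of -2.20 that came from a single array.

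**Figure D5:**
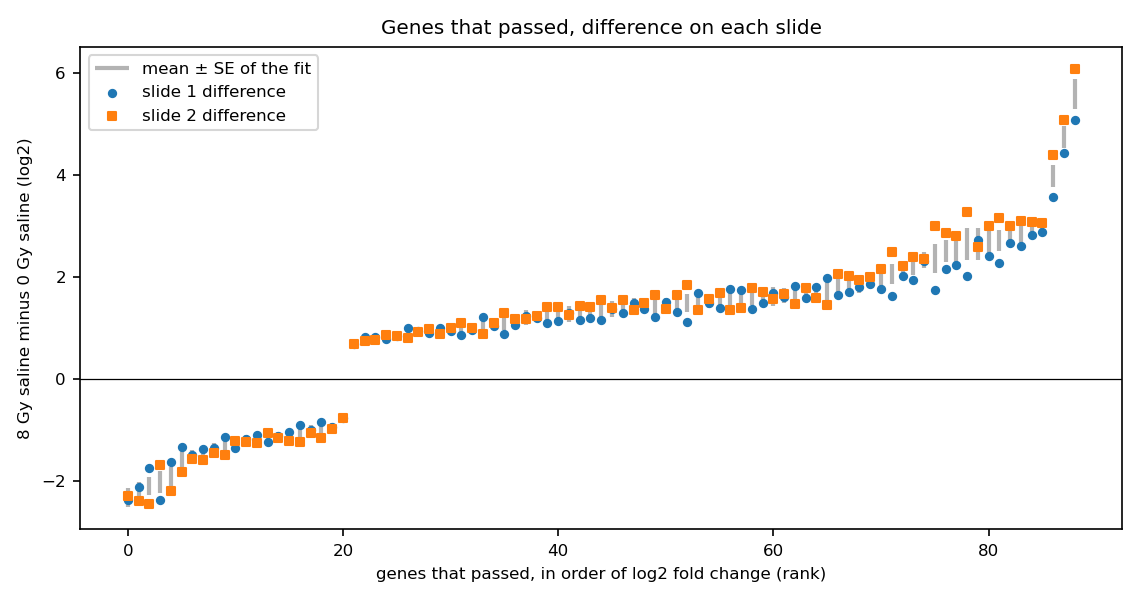
Difference between the 8 Gy and the 0 Gy array on slide 1 (blue circles) and slide 2 (orange squares) for the 89 genes that passed, ranked by log2 fold change, with grey bars for the mean ± the standard error of the fit. The 21 genes on the left are negative and the 68 on the right positive on both slides, and the highest point, Gdf15, is at 5.09 and 6.08.

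In the arrays of irradiated mice given a growth factor, which share the 0 Gy arrays as their control, the same genes were read side by side. Gdf15 stood at 1.90 and 2.43 after FGF1 and at 2.34 and 2.60 after FGF1/CPP-C, beside 1.68 and 2.43 after saline. Cyp1a1 stood at -2.92 and -2.74 after FGF1 and at -3.11 and -3.50 after FGF1/CPP-C. Both were on the side of the 0 Gy levels where the saline arrays at 8 Gy lay. Trim71, an RNA-binding ubiquitin ligase, was an exception by the probe used. It was at the floor at 0 Gy and in all 4 arrays with a growth factor. In the 8 Gy saline arrays it was at -5.86 and -5.54, at least 2.22-fold higher. It entered the fit through those arrays, where alone among the saline arrays it was well above background. Levels at the floor add no spread, so its limma adjusted p of 0.0263 does not measure the spread between arrays. Another Trim71 probe, not well above background on any saline array, differed by -0.62.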

How the data were processed

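The samples were 8 one-colour Agilent mouse arrays hybridised with Cy3-labelled RNA of small intestine, 2 per group. Per the file headers, Agilent Feature Extraction 9.5.3.1 read the arrays, and the deposited processed signal is a linear intensity with background subtracted, not scaled between arrays. The deposited series matrix holds the same intensity values. The log2 of the signal was taken and the 75th percentile of each array subtracted. A floor of -6.95 was set after negative signals had been found. The 1377 control spots and outlier spots were left out, saturated spots were kept and spots of a probe were averaged, which gave 39429 probes. Of these, 28330 were named by accession in a RefSeq table, 2378 by symbol and 8721 by the array files. Probes well above background on both arrays of a group were kept (27484), and the brightest stood for its gene (21781 genes, 16885 with a RefSeq name).

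Using limma 3.58.1 (R 4.3.3), the comparison fitted 4 group means to 8 arrays with 4 residual degrees of freedom and Benjamini-Hochberg adjustment over all genes. An exact permutation test of 2 against 2 arrays cannot go below p = 0.333. The fit was tested on simulated data. Figures used matplotlib 3.10.9 with pandas 2.3.3 in Python 3.11.15. The members and lists were chosen with earlier results of these data known. Named genes were the 15 rises and 12 falls of largest fold change that passed without overlap and had an established symbol, list members that passed or had the smallest p, 22 genes named by symbol in the rule, and the 5 largest differences per direction that did not pass, apart from a few genes that are not reported here. Others are marked where they appear. Replicate numbers are shared by the groups and coincide with the slide. The deviations of replicate 1 from the group mean, compared between the saline groups, correlated across genes with r = -0.519. Between the other pairs of groups r ranged from -0.364 to 0.536. The arrays with antrum and acinar transcripts had opposite numbers in the saline groups, so these values cannot show whether the numbers pair the samples. The alternatives were another scaling, background, source of values, filter, probe rule, fit and moderation, the slide as a block, and each array left out.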

Additional observations from a re-analysis of the deposited data

How the results depend on the processing

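Beside the 89 genes and the 42 distinct list members that passed, quantile normalisation, the series matrix values, the stricter filter on dim probes and the mean of a gene's probes gave counts within 1.5 times of both. Normexp background correction gave 136 genes, of which 77 were among the 89, and moderation with trend and robust gave 146, of which 85 were. No filter on dim probes gave 32 genes and 11 list members, and Trim71, then read from another probe, turned to -0.62. The fit to the 4 arrays alone gave 0 genes and 0 list members (limma, smallest adjusted p 0.135, with 1687 genes at an unadjusted p under 0.05). Leaving out both arrays with antrum and acinar transcripts gave 0 and 0 (smallest adjusted p 0.0963, with 2028 genes at an unadjusted p under 0.05), in a fit that assumes the lone array of each group to vary like the other groups. Leaving out 1 array at a time gave 0 to 43 genes and 0 to 18 list members. Apart from Trim71, every one of the 89 genes kept its direction under each of the 14 listed settings that gave it a value, and 21 passed in most of them, with Aen, Gdf15, Phlda3, Psrc1 and Tnfrsf18 passing in 10. The cause of these changes was not tested. Settings that left arrays out could not turn the direction of any of the 89, since their groups did not overlap.

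With the replicate number, which is the slide, as a block, 37 genes and 21 list members passed. The crossed pairing of the arrays, added after the data had been seen, gave 25 genes and 12 list members. Signal over background limited 8 of the 89 genes at 0 Gy and 3 at 8 Gy, whose folds are bounds. Levels at the floor add no spread to the fit, so the adjusted p of a gene with arrays there understates the spread.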

Other observations

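Other gene groups of the tissue held no gene that passed. The EGF receptor ligands Areg and Ereg, which drive epithelial repair, stood at -0.25 and 0.30 (Areg) and at -2.46 and -1.93 (Ereg) without irradiation. With it they stood at 1.23 and 1.45 and at -1.38 and -1.04, so that the groups did not overlap (1.32 ± 0.26 and 0.99 ± 0.22, limma adjusted p = 0.134 and 0.183). Of 13 measured EGF receptor ligands and receptors, 7 were positive and 6 negative. Their median was 0.03, with -0.09 on slide 1, 0.27 on slide 2 and 0.06 without the arrays with antrum transcripts. In the Notch pathway, which sets absorptive against secretory fate, the feedback gene Nrarp had 0.97 ± 0.16 (adjusted p = 0.102) and the receptor gene Notch3 0.83 ± 0.14 (adjusted p = 0.107), with 12 of 19 measured genes positive and a median of 0.10, or 0.02 without the arrays with antrum transcripts. Cholesterol synthesis genes were negative in 18 of 22, beside 12988 of all 21749 genes. Their median was -0.06 on slide 1, -0.43 on slide 2, where the 8 Gy array carried antrum and acinar transcripts, and -0.26 without both such arrays. Fdps, farnesyl diphosphate synthase, had -0.61 ± 0.09 (adjusted p = 0.0868). Heat shock proteins were negative in 10 of 12, with a median of -0.30, -0.09 on slide 1, -0.47 on slide 2 and -0.32 without both such arrays.

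Adipocyte genes were positive in 8 of 10, with a median of 0.60, 0.65 on slide 1, 0.75 on slide 2 and 0.72 without both such arrays. Retn, the adipocyte hormone resistin, was at -4.69 and -5.90 at 0 Gy and at -2.52 and -3.52 at 8 Gy (2.27 ± 0.51, limma adjusted p = 0.179). Genes of regeneration and the fetal-like state had a median of -0.53 on slide 1 and 1.34 on slide 2, where the 8 Gy array carried antrum and acinar transcripts. Without both arrays with such transcripts it was 0.08.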
